A study of Mus musculus with 9 samples.

Results

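MHC class I molecules carry peptides from inside the cell to its surface, where CD8 T cells and natural killer cells read them. The 10 genes described here encode the parts of that route. H2-K1 and H2-D1 are the classical heavy chains, H2-M3 and H2-T23 are non-classical ones, and B2m is the light chain they share, which is also the light chain of CD1d. Tap1 and Tap2 form the transporter that moves peptides into the endoplasmic reticulum, and Tapbp (tapasin) holds the empty class I molecule beside it. Psmb8 and Psmb9 are catalytic subunits of the immunoproteasome, the form of the proteasome that interferons induce and that cuts peptides suited to class I. The array has probe sets with a single annotated gene for 8251 genes, 9 of these 10 among them. The 10 were chosen by name, and every probe set annotated to them was taken, 21 of the 12422 probe sets on the array that are not controls. Of these, 17 have a member as their only gene and 4 are annotated to several genes with a member among them. H2-T23 is read only by probe sets of the second kind.

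RNA came from whole skin of 9 mice that had received no UVB, each on an Affymetrix MG-U74 array of its own. There were 5 mice without CD1d (Cd1d -/-, inbred, C57BL/6 background) and 4 wild-type mice (Cd1d +/+, C57BL/6), matched in age and sex. The labels state no other allele or treatment, and the age, the sex, the tissues in which CD1d was removed and the targeted allele are not given in the sources used here. Signals are MAS5 units, a robust average over a probe set's probes on an arbitrary scale, so levels of different probe sets are not compared. Values are mean ± SD with n = 5 knockout and n = 4 wild-type mice, and log2 differences are knockout minus wild type with their standard error (SE).

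The arrays had been scaled alike, with trimmed mean signals between 200.11 and 200.133. Of the 17 keratinocyte markers 12 were kept by the filter on low signals, among them Krt10 at 6835 ± 845 and 6333 ± 403. The targeted gene Cd1d1 read 60.3 ± 12.7 in knockout and 109 ± 16.7 in wild-type mice, without overlap, and did not pass limma's test over the array (log2 -0.86, adjusted p = 0.242). In this bulk tissue fewer cells of a type and less RNA per cell cannot be told apart.

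The positions of these genes and the letters in their promoters are given as background, and any part of them in the values was not tested. In the RefSeq gene table (assembly GRCm38.p6) B2m is on chromosome 2 and the other 9 members are on chromosome 17, within the MHC region. Psmb9, Tap1, Psmb8 and Tap2 follow one another as neighbouring protein-coding genes. Tapbp and H2-K1 lie on one side of them, and H2-D1, H2-T23 and H2-M3 on the other. RefSeq's promoter table, with windows of 250 bases before to 50 after a start site, had a window for 9 of the 10 members (none for Tap2). H2-K1 had 2 windows, and the one with the start site farthest upstream was used. The windows were searched on both strands for letters of regulatory sites known from class I genes.

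The stretches below run from 190 to 31 bases before the start site and are shown because they carry such sites in the heavy chains and in their light chain. Capitals mark the interferon-stimulated response element (ISRE) as GAANNGAAA or AAANNGAAA, the NF-kappaB site as GGGGATTCC or GGGNNTTTC, and the X2 form of the cAMP response element as TGACGC. A match on the opposite strand reads as the reverse complement. All are written 5′ to 3′ on the gene's own strand, from GRCm38.p6, at chr17:34000378-34000537 (minus strand) for H2-K1, chr17:35262904-35263063 (plus) for H2-D1, chr17:37270044-37270203 (plus) for H2-M3 and chr2:122147497-122147656 (plus) for B2m.
H2-K1: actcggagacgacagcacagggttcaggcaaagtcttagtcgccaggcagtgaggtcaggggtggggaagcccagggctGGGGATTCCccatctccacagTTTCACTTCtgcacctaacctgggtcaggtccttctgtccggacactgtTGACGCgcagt
H2-D1: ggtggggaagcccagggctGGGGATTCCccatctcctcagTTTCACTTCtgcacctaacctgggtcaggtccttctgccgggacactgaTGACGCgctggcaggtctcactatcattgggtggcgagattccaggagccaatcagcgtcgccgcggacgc
H2-M3: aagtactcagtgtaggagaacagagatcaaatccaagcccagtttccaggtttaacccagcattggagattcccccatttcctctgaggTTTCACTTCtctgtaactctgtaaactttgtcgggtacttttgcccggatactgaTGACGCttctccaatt
B2m: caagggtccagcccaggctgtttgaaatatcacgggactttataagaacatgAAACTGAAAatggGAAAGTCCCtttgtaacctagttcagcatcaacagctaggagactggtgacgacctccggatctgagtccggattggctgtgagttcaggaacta

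H2-K1 and H2-D1 hold the same 3 sites in the same order. From the first letter of the NF-kappaB site to the last of the X2 site both stretches are 76 bases long, and 72 of these letters are the same. H2-M3 has the ISRE and X2 letters but not this NF-kappaB form, and B2m has the second form of the ISRE and of the NF-kappaB site 4 bases apart. Of all 32851 windows in the table, 7.52% hold GAANNGAAA, 10.55% AAANNGAAA, 0.250% GGGGATTCC, 4.36% GGGNNTTTC and 7.40% TGACGC. AAANNGAAA was also found in the H2-T23 window. The gamma-activated site TTCNNNGAA (8.30% of windows) was found in those of H2-M3 and Psmb8, the GC box GGGCGG (35.7%) in those of Tap1, Psmb9 and Tapbp, and the full cAMP response element TGACGTCA (1.79%) in none of the members' windows. A match is a string of letters and not a shown binding site.

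Tap1 and Psmb9 start back to back, so that the 225 bases between their start sites are the promoter of both. This stretch is shown for that reason, on the Tap1 strand (chr17:34187331-34187555, plus strand, GRCm38.p6), with the GC box in capitals.
Tap1 and Psmb9: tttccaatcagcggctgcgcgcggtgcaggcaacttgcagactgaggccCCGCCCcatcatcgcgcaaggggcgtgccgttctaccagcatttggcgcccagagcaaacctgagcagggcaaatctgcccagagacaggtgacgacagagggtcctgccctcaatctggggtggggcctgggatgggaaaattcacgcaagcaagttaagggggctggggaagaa

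**Figure D1:**
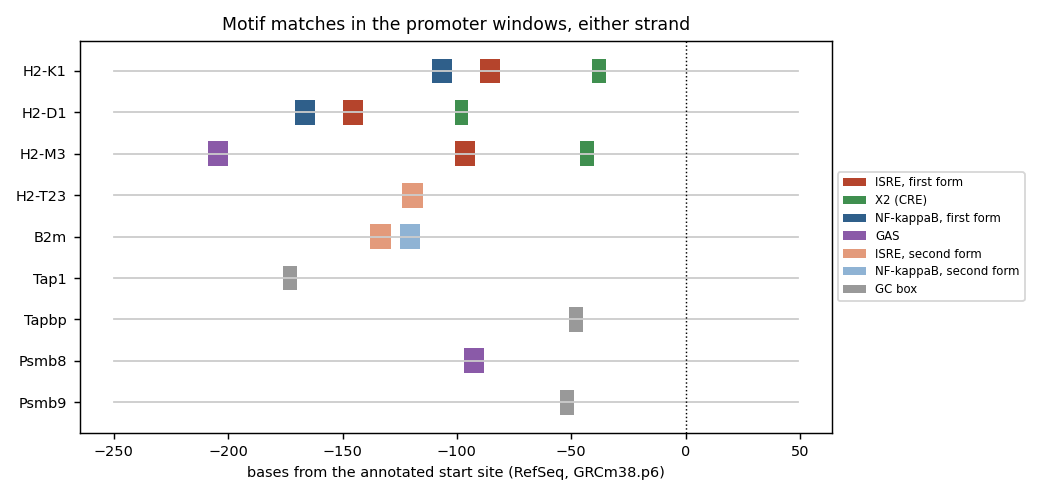
Motif matches in the promoter windows of 9 members, by distance in bases from the annotated start site (x axis, dotted line at the start). Coloured blocks are matches on either strand. H2-K1 and H2-D1 show the same order of NF-kappaB, ISRE and X2 letters, from 111 and 171 bases before the start, and B2m carries the second forms of the ISRE and NF-kappaB letters.

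No member passed the test for a difference between knockout and wild-type skin, and the values leaned low in the knockout by small amounts. Of the 17 probe sets with 1 gene, 15 were bright enough to be tested, and 0 of these passed limma's threshold of adjusted p 0.05. Over the whole array 4 of 7658 tested probe sets passed, or 0.0522%. At an unadjusted p under 0.05 limma found 2 of the 15, those of B2m and H2-M3, both lower. That count fell to 1 with the replicate number as a block, and to 1 with the macrophage and dendritic cell covariate. It was 6 without knockout 3, 4 with the number of decimals in the deposited values as a block, and 9 within the arrays of 7 decimals. These fits are described further on. With all arrays and no block or covariate, 3.96% of all tested probe sets were lower at that level. The share over all probe sets is not given for the other fits, so their counts have no background to be read against. The same 2 were the only ones of the 15 in which every knockout array read below every wild-type array, a pattern found for 1.38% of all tested probe sets. A log2 difference below 0 was found for 14 of the 15 members' probe sets and for 48.8% of all. Each of the 9 genes was next represented by its brightest tested probe set. Its median log2 difference was then -0.27, running from -0.54 for H2-M3 to -0.06 for Psmb9, against a median of 0.01 over all 5855 genes. With each gene represented by the median of its tested probe sets instead, the members' median was -0.15.

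The light chain B2m and the non-classical heavy chain H2-M3 showed the clearest separation of the mice. B2m read 3628, 3243.9, 4202.9, 4404.8 and 3475.3 in knockout mice 1 to 5 and 4946.1, 5179, 4500.5 and 4592.6 in wild-type mice 1 to 4. All knockout values are below all wild-type values, although knockout 4 and wild type 3 nearly meet. The means were 3791 ± 493 and 4805 ± 315, a log2 difference of -0.35 (SE 0.11, 95% interval -0.59 to -0.11), or 78.5% of the wild-type level. The exact two-sided permutation test over all arrangements of the arrays gave p = 0.0238, and limma's adjusted p over all probe sets was 0.399.

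H2-M3, which presents formylated peptides such as those of bacteria and mitochondria, read 243.6, 220.8, 287.8, 195.4 and 247.4 in knockout mice 1 to 5. The wild-type values were 337.5, 298.1, 368 and 377.1. Again no knockout value reached the wild-type range, with knockout 3 closest to it. The means were 239 ± 34.3 and 345 ± 35.7, a log2 difference of -0.54 (SE 0.14, interval -0.84 to -0.23), or 69.0% of the wild-type level. For H2-M3 the exact permutation p was 0.0159 and limma's adjusted p 0.336. A second H2-M3 probe set was too dim to be tested, at 23.5 ± 12.7 in knockout and 34.4 ± 22.1 in wild-type mice.

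The classical heavy chains did not separate the groups. H2-K1 read 6916.6, 6190.1, 9898.1, 7243.9 and 7539.2 in knockout mice 1 to 5 and 7651.3, 8899.3, 7484.4 and 8836.6 in wild-type mice 1 to 4 at its brightest probe set, 93120_f_at. The highest of all 9 values is that of knockout 3, and the groups overlap. The log2 difference was -0.13 (SE 0.13, interval -0.42 to 0.15, limma adjusted p = 0.788). A second set, 97125_f_at, read 943 ± 232 against 1140 ± 26.8, with 4 knockout mice below the wild-type range and knockout 3 above it (log2 -0.30, SE 0.15, interval -0.64 to 0.03, limma adjusted p = 0.576). The third H2-K1 set, 97700_at, lay near the filter signal, at 59.6 ± 17.6 and 65.6 ± 15.7, and did not follow the other 2 across arrays (Pearson r of -0.29 and -0.0038 over the 9 arrays).

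H2-D1 was read by 3 probe sets, which agreed across the arrays with r between 0.79 and 0.81. At 97540_f_at the knockout values were 5261.8, 5126.8, 6569.5, 6344.2 and 5545.3 and the wild-type values 6465.3, 6505.7, 6324 and 6185. Knockout 1, 2 and 5 lie below all wild-type mice, while knockout 4 lies among them and knockout 3 above them. The wild-type mice were close together here, at 6370 ± 146, and the knockout mice more spread, at 5770 ± 650. The log2 differences were -0.15 (SE 0.10, interval -0.36 to 0.06) for this set, -0.09 for 101886_f_at and -0.25 for 97541_f_at, with limma adjusted p values from 0.663 to 0.858.

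Heavy chain genes are close copies of one another, and the ending _f_at marks probe sets whose probes can bind several members of such a family. Cross-binding between H2-K1, H2-D1 and their relatives can therefore not be separated here. Of the 4 probe sets annotated to several genes, 98472_at (H2-T-ps and H2-T23) is the closest to a reading of H2-T23, the molecule Qa-1 that presents leader peptides to natural killer cells. It read 293.5, 270.1, 334.3, 322.3 and 231.3 in knockout mice 1 to 5 and 289.9, 327.9, 375.8 and 359.2 in wild-type mice 1 to 4. Knockout 2 and 5 are below the wild-type range and the other 3 are within it (log2 -0.23, SE 0.14, interval -0.54 to 0.09, limma adjusted p = 0.656). The set 102161_f_at, annotated to 10 genes with H2-K1, H2-D1 and H2-T23 among them, read 2686 ± 633 against 2719 ± 52.9 (log2 -0.05, SE 0.15, limma adjusted p = 0.951). The remaining 2 were too dim to be tested, at 6.64 ± 5.38 and 7.35 ± 5.28 for 95773_at and at 44.6 ± 20.5 and 36.7 ± 16.04 for 97174_r_at.

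The peptide transporter followed the same mice. Tap1 read 525.3, 493, 864.4, 679 and 609.5 in knockout mice 1 to 5 and 687.5, 812.2, 804.6 and 692.6 in wild-type mice 1 to 4. Here 4 knockout mice are below the wild-type range and knockout 3 is above it. The log2 difference was -0.27 (SE 0.16, interval -0.62 to 0.09, limma adjusted p = 0.651). A second Tap1 set, 162278_r_at, was too dim to be tested, at 20.2 ± 7.87 and 23.8 ± 8.88.

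Tap2, the other chain of the transporter, read 116.8, 120.4, 227.9, 158.6 and 157.6 in knockout mice 1 to 5. Its wild-type values were 171.2, 193.4, 227.7 and 183.5. Once more 4 knockout mice are below all wild-type mice, with knockout 3 at the top (log2 -0.35, SE 0.20, interval -0.78 to 0.08, limma adjusted p = 0.613).

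Tapbp was read by 3 tested probe sets that did not agree. At the brightest, 100154_at, the knockout values were 527.7, 530.5, 886.4, 904.5 and 649.6 and the wild-type values 874.6, 824.2, 703.7 and 897. Knockout 1, 2 and 5 are below the wild-type range and knockout 3 and 4 are at its upper end. The log2 difference was -0.27 (SE 0.18, interval -0.68 to 0.13, limma adjusted p = 0.686), against 0.07 for 102689_at and -0.08 for 162104_f_at (limma adjusted p = 0.920 and 0.959). Over the 9 arrays 100154_at correlated with 102689_at at r = 0.61 and with 162104_f_at at -0.47.

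Of the 9 genes at their brightest probe set, the immunoproteasome subunits had the smallest differences, with a wide spread in both groups. Psmb8 read 664.6, 541.3, 1027.5, 960 and 817 in knockout mice 1 to 5 and 875.8, 1026, 766.3 and 747.7 in wild-type mice 1 to 4. Psmb9 read 272.2, 241.7, 450.5, 419.2 and 304.4 in the knockout mice and 358.8, 440, 316.7 and 273.9 in the wild-type mice. In both genes knockout 1 and 2 are the lowest of all 9 mice, and knockout 3 is at the top. The log2 differences were -0.12 (SE 0.19, interval -0.53 to 0.30) for Psmb8 and -0.06 (SE 0.21, interval -0.52 to 0.39) for Psmb9, with limma adjusted p values of 0.876 and 0.953.

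**Figure D2:**
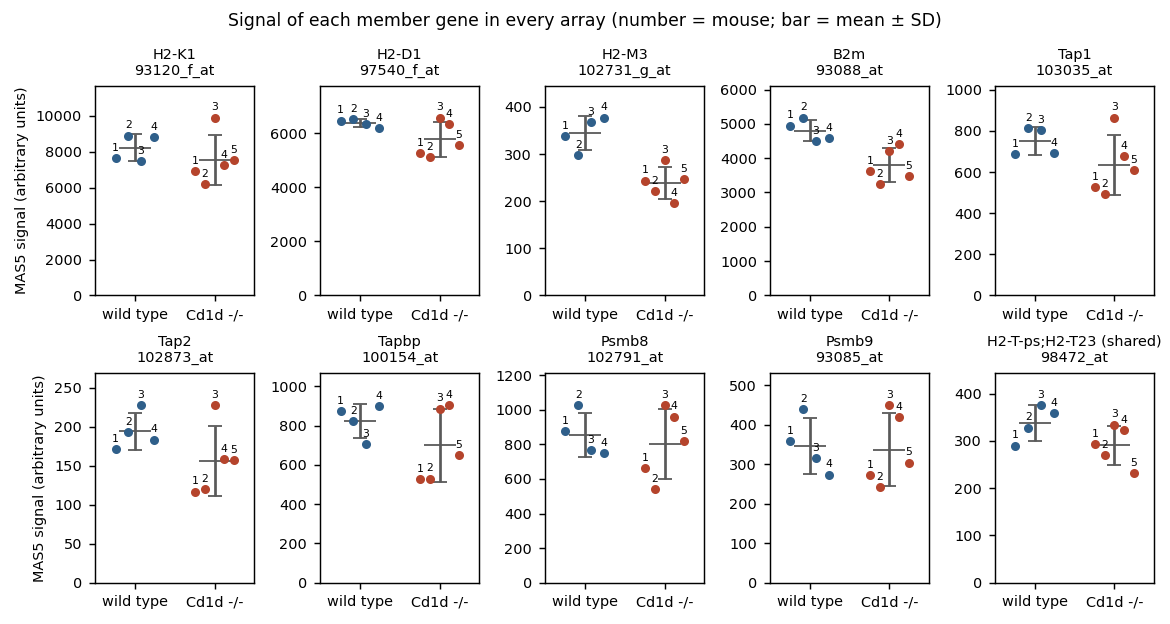
MAS5 signal (y axis, arbitrary units, from 0) of the brightest tested probe set of 9 member genes, and of the set annotated to H2-T-ps and H2-T23, in every wild-type (blue) and Cd1d -/- (red) mouse, numbered as in the text, with mean ± SD. The groups separate for H2-M3 and B2m, and in most other panels knockout 3 reaches or passes the wild-type mice.

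**Figure D3:**
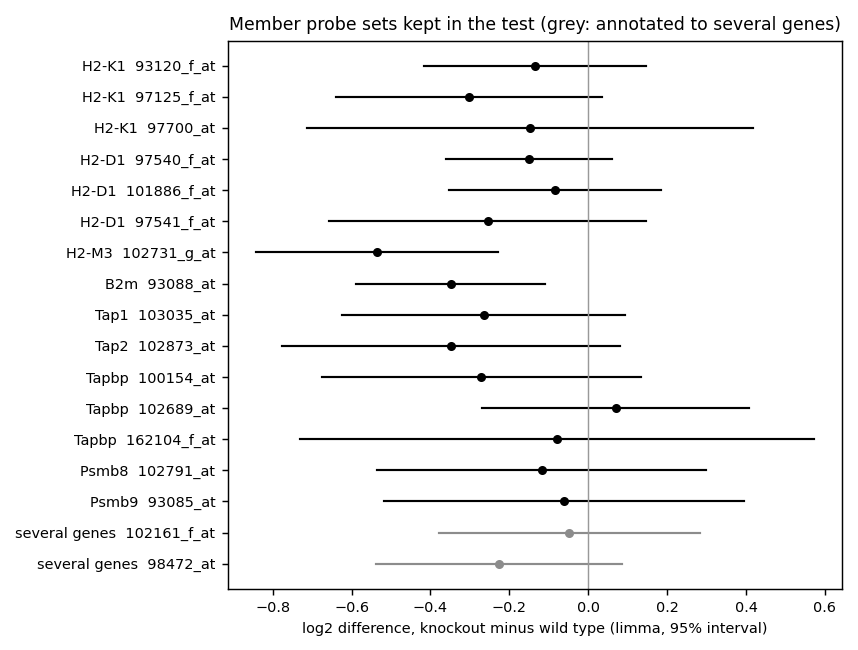
Log2 difference, knockout minus wild type (x axis), with its 95% interval from limma for the 15 tested probe sets with 1 member gene (black) and the 2 tested sets annotated to several genes (grey). The intervals of H2-M3 (102731_g_at) and B2m lie below 0 and all others include 0.

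The genes varied together from mouse to mouse. Among the 36 pairs of the 9 genes, 33 had a Pearson r over 0.5 across the 9 arrays, with a median r of 0.74. Among all pairs of the 5846 other genes the median r was 0.0022, and 12.9% of pairs were over 0.5. All values come from the same 9 arrays and share their scaling, so these are descriptions with no test. The closest pairs were Tap1 with Tap2 (r = 0.97) and Psmb8 with Psmb9 (0.95). Tap1 and Psmb9, the pair with the shared promoter stretch printed above, stood at 0.78. B2m, on another chromosome, correlated with the other members at r from 0.59 (H2-M3) to 0.90 (H2-D1). With the mean of each group removed the median r was 0.73. This value pools the deviations of both groups, and the knockout mice, with the wider spread described below, weigh more in it. No correlation was computed within 1 genotype alone.

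H2-M3 was the exception. Its r was 0.15 with Psmb8, 0.0008 with Psmb9 and 0.38 with Tapbp, and these are the 3 pairs not over 0.5. With group means removed its r was -0.24 with B2m and 0.06 with H2-D1. H2-M3 read low in knockout 4 (195.4), a mouse in which Psmb8 and Psmb9 read high.

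**Figure D4:**
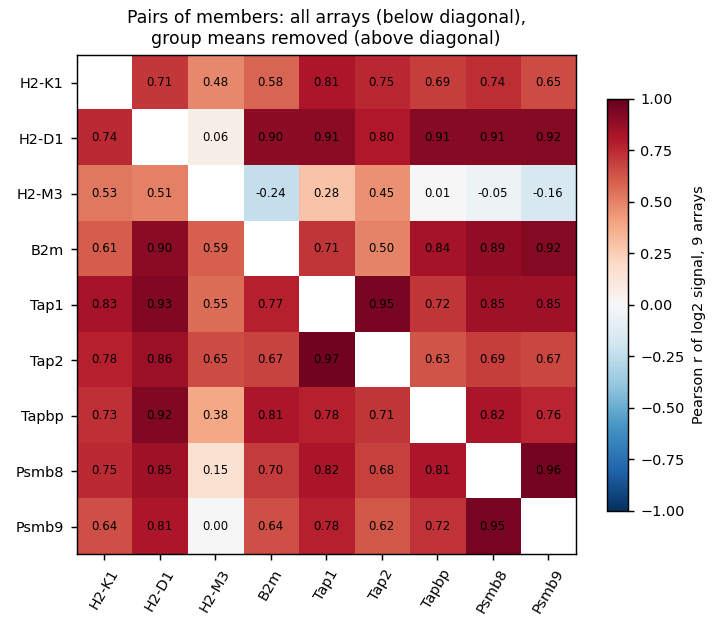
Pearson r of log2 signal between the 9 member genes over the 9 arrays, from all arrays (below the diagonal) and with the mean of each group removed (above it). Most cells are red, with Tap1 and Tap2 at 0.97, and H2-M3 has the lowest values, from 0.0008 (Psmb9) to 0.65 (Tap2) below the diagonal and from -0.24 (B2m) to 0.48 (H2-K1) above it.

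The joint level per array is the median over the 9 genes after each gene was centred on its mean. It was -0.28, -0.45, 0.34, 0.07 and -0.13 (log2) in knockout mice 1 to 5, and 0.10, 0.20, 0.07 and 0.12 in wild-type mice 1 to 4. Knockout 1, 2 and 5 are below all wild-type mice, knockout 4 is just below the lowest of them and knockout 3 is above them all. In all 9 genes both knockout 1 and knockout 2 read below every wild-type mouse, as in 10.5% of all 5855 genes. This pair was singled out after the values were seen, and the 9 genes vary together, so they are not 9 separate observations. The spread was wider in the knockout group. The coefficient of variation of the signal was larger there for 9 of the 9 genes, from 11.3% to 28.6% against 2.29% to 20.4%. The SD of log2 signal was also larger there for 9 of the 9, and for 48.0% of all genes. The difference in spread was not tested.

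Knockout 1 and 2 are also the only knockout arrays whose values were deposited with 7 decimals, together with wild type 2, 3 and 4. The others have 9 decimals, and what this marks is not stated in the sources used here. Within the 7-decimal arrays the members' median log2 difference was -0.48, and within the 9-decimal arrays, with wild type 1 alone as control, it was 0.046. B2m differed by -0.47 and -0.30 in these subsets, and H2-M3 by -0.58 and -0.49, with a single wild-type mouse behind the second value of each. No member passed limma's threshold within the 7-decimal arrays, and with 1 wild-type array the other subset offers no useful test. With the number of decimals as a block the members' median was -0.35.

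Among genes the 6 whose pattern over the 9 arrays was most like the members' joint level, of 5846, were Plcg2 (r = 0.95), Fcgbp (0.94), Tnfrsf4 (0.93), Ier3 (0.93), Igtp (0.92) and Arg1 (0.92). The 3 most opposed were Dlx3 (-0.95), a transcription factor of the hair follicle, Jpt1 (-0.95) and Hmgb3 (-0.95). Dlx3 read 438 ± 300 in knockout and 157 ± 16.5 in wild-type mice, and Igtp, an interferon-induced GTPase, 82.5 ± 30.5 and 100.2 ± 19.1. None of these 9 genes passed limma's test (adjusted p from 0.471 to 0.848).

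Hair follicle genes ran opposite to the members across the mice (r = -0.84 over the 9 arrays, a description). Of 30 listed hair follicle genes 17 were measured, all with higher means in the knockout and 0 passing limma's test (median log2 1.64). Their median per array was 1.22, 2.81, -0.76, -1.79 and 2.52 in knockout mice 1 to 5 and ran from -1.38 to 0.04 in the wild-type mice, and their summed signal ran from 2506 to 40610 and from 2084 to 4650. The 3 knockout mice with high follicle values are the same 3 with the lowest class I medians. With the follicle median as a covariate the members' median log2 difference was -0.045, that of B2m -0.20 and that of H2-M3 -0.57. The follicle median itself differs between the genotypes, so as a covariate it can remove part of any difference between them.

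Markers of macrophages and dendritic cells, which carry much class I, were lower in the knockout in 19 of 19 measured of 27 listed, with a median log2 of -0.29 and 0 passing limma's test. Their per-array median was -0.23, -0.22, -0.05, -0.0039 and 0.07 in knockout mice 1 to 5 and from 0.10 to 0.21 in wild type, and their summed signal ran from 12435 to 15114 and from 15540 to 18419. Lyz2, the lysozyme of macrophages, read 1849 ± 267 against 2323 ± 243 (log2 -0.34) and C1qc of complement 2345 ± 288 against 2486 ± 286 (-0.09). With this median as a covariate the members' median was 0.10, B2m -0.21 and H2-M3 -0.54. This covariate itself separates the genotypes, so it removes part of any difference between them.

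Of the other cell types, 5 of 23 T, NK and NKT cell markers were measured (1 lower, median log2 0.06, the summed signal from 1198 to 1890 in knockout and 867 to 1703 in wild type). The brightest were Thy1, also a fibroblast marker, at 1263 ± 297 against 1031 ± 438, and Cd4 at 101 ± 30.3 against 106 ± 25.1, while the CD8 chains Cd8a and Cd8b1, on the cells that class I serves, did not pass the filter. Endothelial markers, also rich in class I, were lower in 10 of 10 (median -0.13, summed signal 1730 to 2868 and 2289 to 2614). That median was -0.062 without wild type 4 and -0.22 without knockout 4, and the T, NK and NKT cell median ran from -0.058 without knockout 3 to 0.24 without wild type 3. B cell markers were lower in 2 of 4 (median 0.13), keratinocyte markers in 3 of 12 (0.14) and fibroblast markers in 2 of 10 (0.27). Skeletal muscle markers were lower in 12 of 12 (median -0.20, further from 0 than the endothelial one) and adipocyte markers in 2 of 6 (0.16). In none of these lists did a gene pass limma's test. Whether cell makeup has a part in the class I values was not tested beyond the covariates given above.

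The rest of the pathway was read from lists. Of 22 other class I and class I-like genes 6 were measured, 4 lower and 2 higher with 0 passing, and the list holds the targeted Cd1d1. H2-Q10, a secreted class I molecule, read 104 ± 42.6 against 146 ± 24.8 (log2 -0.58), and Hfe, which regulates iron uptake, 244 ± 65.2 against 304 ± 33.5 (-0.35). H2-Q4 ran the other way, at 3586 ± 619 against 3286 ± 108 (0.11). In limma the adjusted p of H2-Q10, Hfe and H2-Q4 was 0.560 or more.

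Peptide supply outside the members showed no common direction, with 7 of 14 measured genes lower, 7 higher and 0 passing (median log2 0.01). Of the standard proteasome subunits, which the immunoproteasome subunits replace, Psmb5 read 570 ± 91.6 against 462 ± 122 (log2 0.32) and Psmb6 773 ± 164 against 618 ± 256 (0.40). Psmb7 hardly differed, at 615 ± 90.9 against 595 ± 174 (0.08). In limma the adjusted p values of Psmb5, Psmb6 and Psmb7 were 0.607, 0.679 and 0.922. Psmb10, the third immunoproteasome subunit, read 407 ± 65.6 against 448 ± 74.7 (-0.14), and the proteasome activator Psme1 689 ± 155 against 762 ± 128 (-0.16).

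The log2 ratio of each immunoproteasome subunit to the subunit it replaces was compared within arrays. The difference between genotypes was -0.44 for Psmb8 over Psmb5, -0.46 for Psmb9 over Psmb6 and -0.22 for Psmb10 over Psmb7. In the exact permutation test these gave p = 0.143, 0.190 and 0.349, and 0.286, 0.286 and 0.349 after Benjamini-Hochberg adjustment over the 3 comparisons. The Psmb8 ratio, centred on its mean, was -0.43, -0.85, 0.48, -0.20 and 0.04 in knockout mice 1 to 5 and 0.01 to 0.37 in wild type, so knockout 3 again stands above all wild-type mice.

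The MHC class II pathway serves peptides taken up from outside the cell, and 11 of its 11 measured genes (13 listed) had lower means in the knockout (median log2 -0.42), with 0 passing. H2-Eb1 read 2563 ± 533 against 3689 ± 337 (-0.54) and the lysosomal protease Ctss 1333 ± 220 against 1901 ± 225 (-0.52), each with a limma adjusted p of 0.336. The class II median per array was -0.40, -0.49, 0.21, -0.05 and -0.16 in knockout mice 1 to 5, the same order of mice as the class I median, and 0.04 to 0.39 in wild type.

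Regulators and targets of interferon gave smaller values. Of 14 measured interferon regulators 7 were lower and 7 higher with 0 passing. Rela, a subunit of NF-kappaB, read 1158 ± 199 against 1559 ± 59.2 without overlap (log2 -0.44, limma adjusted p = 0.363), and Irf8, a factor of myeloid cells, 150 ± 21.7 against 192 ± 20.6 (-0.37, adjusted p = 0.463). Jak2, a kinase of interferon receptors, ran the other way, at 105 ± 9.55 against 86.6 ± 5.46 (0.27, adjusted p = 0.576), and the receptor chain Ifngr1 read 175 ± 36.02 against 209 ± 27.7 (-0.27). Of 15 measured interferon-induced genes 11 were lower and 4 higher with 0 passing (median -0.15, and -0.094 without wild type 2). Isg15, a ubiquitin-like protein, read 180 ± 44.4 against 241 ± 76.4 (-0.40), and Socs1, an inhibitor of cytokine signalling, 134 ± 22.5 against 110.2 ± 29.8 (0.31). Rsad2 differed by -0.62 and Ly6e by -0.14. The median of the interferon-induced genes per array was -0.19, -0.47, 0.27, 0.09 and -0.02 in knockout mice 1 to 5 and -0.07 to 0.38 in wild type.

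The same stretch of chromosome 17 holds many genes with no part in antigen presentation. Of 28 such genes listed 22 were measured, with 13 lower, 9 higher and 0 passing, and a median log2 of -0.03. Their per-array medians stayed between -0.10 and 0.08, and those of knockout 1 and 2 were -0.06 and 0.01. Single genes could depart from this median. Ier3, named above among the genes most like the members' joint level (r = 0.93), is on this list. Of the 4 with the smallest p, Tubb5, Tcf19 and Nelfe overlapped between the groups, and Ddx39b, an RNA helicase, did not, at 1002 ± 102 against 818 ± 19.5 (log2 0.29, limma adjusted p = 0.459).

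**Figure D5:**
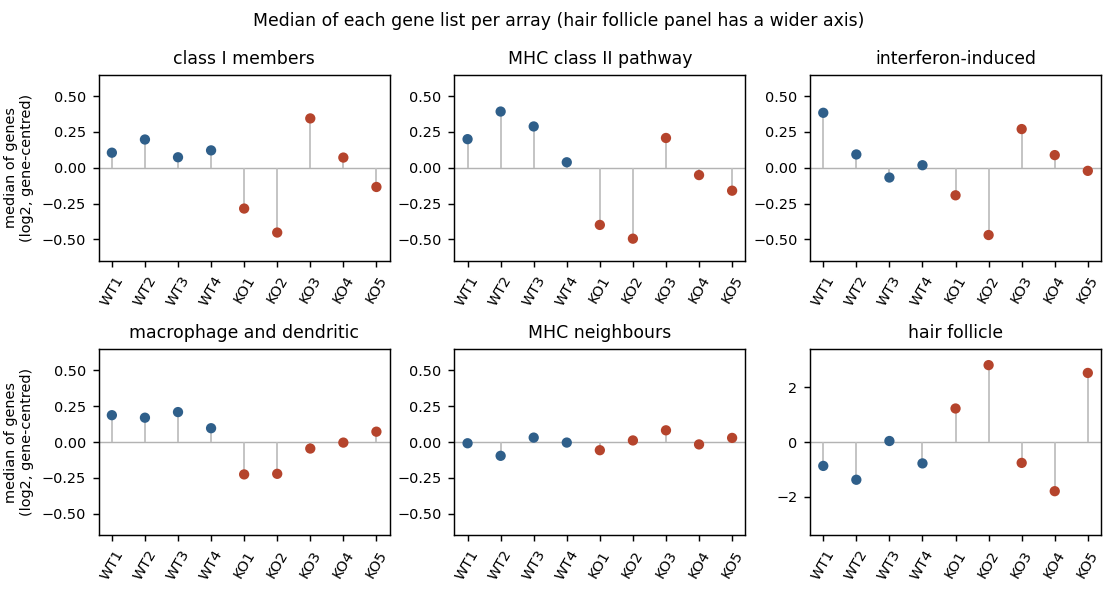
Median of gene-centred log2 signal (y axis) per array (x axis) for the 9 class I members and 5 other gene lists, wild type in blue and knockout in red. The class I and class II panels share low points in knockout 1 and 2, and knockout 3 is the highest knockout in both. It lies above all wild-type mice for class I but below wild type 2 and 3 for class II. The MHC neighbours stay between -0.10 and 0.08, and the hair follicle panel, on a wider axis, runs opposite to class I.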

How the data were processed

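Whole-skin RNA of 9 mice was measured on 1 array each. Per the labels, the authors computed signals with Microarray Suite 5.0. The deposited values are natural log signals, which follows from the numbers, since every exponential lies within 0.000597 of a whole multiple of 0.1. They were divided by the natural log of 2 and not normalised again. The 66 control probe sets were left out. Probe sets reaching the 40th percentile of their array (a signal of 43.4 to 53.3) on 4 or more of the 9 arrays were tested, 7658 in all. Names came from the platform annotation, updated through Entrez identifiers (10817 of 10833 sets with 1 gene). Differences were tested with limma 3.58.1 in R 4.3.3 (lmFit, eBayes with a trend), two-sided, Benjamini-Hochberg adjusted over all kept sets, and for single values with an exact permutation test whose smallest p is 0.00794. The procedure was checked on simulated arrays with independent noise in each probe set and inserted differences larger than the members' median. That check does not show what power there was for differences of the members' size. Detection calls were not used, so the level of background is unknown, and an array has no depth, so the number of mice limits the precision.

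The members and lists were chosen with earlier results of these data known. Named were the members, up to 4 genes with the smallest p per pathway list, up to 2 of the brightest per marker list, and the 9 genes most and least like the members. Other genes in the text (H2-T23's shared sets apart, Psmb10, Psmb7, Psme1, the subunit ratios, the counts on spread, Cd8a and Cd8b1) were picked with their values in view. The motifs AAANNGAAA, GGGGATTCC and GGGNNTTTC were added after the windows were read, the last pair being the planned forms without a final C. Ctss stands in 2 lists, as do Psmb10 and Thy1. Alternatives were other filters, pseudocounts 16 and 64, median centring, quantile normalisation, no trend, unequal variances, blocks, covariates, subsets and each array left out.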

Additional observations from a re-analysis of the deposited data

Results flagged for a closer look

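Each of the 21 probe sets was examined in both groups for a mouse far from the others, 42 groups in all, of which chance alone flags about 1 in 20. There were 3. Knockout 3 read 1347.5 at H2-K1 97125_f_at, where the other knockout mice ran from 774.1 to 913.4. Wild type 3 read 492 at H2-D1 97541_f_at, above the 352.6 to 371.7 of the other wild-type mice. Wild type 2 read 186.5 at Tapbp 162104_f_at, below the 308.9 to 326.5 of the others. The brighter probe sets of H2-D1 and Tapbp did not show these last values as extreme, with wild type 3 at 6324 (H2-D1) and wild type 2 at 824.2 (Tapbp).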

How the results depend on the processing

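No member passed under any alternative, which says nothing about stability for the 9-decimal arrays, with 1 wild-type array. The members' median log2 difference stayed between -0.48 and -0.045 except within the 9-decimal arrays (0.046) and with the macrophage and dendritic cell covariate (0.10), and taking the median over each gene's sets it was -0.15. Leaving out 1 array gave -0.37 (without knockout 3) to -0.18. The count of 4 over all probe sets became 7 with pseudocount 64, 0 with unequal variances, 10 and 0 within the 7-decimal and 9-decimal arrays, 0 with the macrophage and dendritic cell covariate, and 4 to 8 with 1 array left out (7 without knockout 2 or 3, 8 without knockout 4).

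Of the 344 values of single members under alternatives 0 passed and 27 changed sign, none of them called in either setting. Within the 9-decimal arrays these were H2-K1 93120_f_at (0.090), Tap1 (0.046), Tap2 (0.061), Psmb8 (0.088) and Psmb9 (0.105). With the macrophage covariate they were H2-K1 93120_f_at (0.033), H2-D1 (0.025, 0.20 and 0.082), Tap1 (0.10), Tap2 (0.12), Tapbp 100154_at (0.12), Psmb8 (0.40) and Psmb9 (0.41), and with the hair follicle covariate H2-D1 101886_f_at (0.070), Psmb8 (0.13) and Psmb9 (0.22). Within the 7-decimal arrays H2-K1 97700_at gave 0.21 and Tapbp -0.16 and 0.31, and with decimals as a block Tapbp gave -0.067 and 0.018. With 1 array left out, Psmb9 ran from -0.18 to 0.059, Psmb8 from -0.22 to 0.014 and Tapbp 162104_f_at from -0.27 to 0.19. The cause was not tested. B2m, H2-M3 and the H2-K1 set 97125_f_at (from -0.49 to -0.15) kept their sign throughout.

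The labels do not say what the replicate numbers mark beyond naming the samples, and same-numbered mice did not deviate together (r from -0.04 to 0.14). With the replicate number as a block, without knockout 5, 1 probe set passed and the members' median was -0.25.

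With 1 array left out, the medians of other lists that moved by over 1.5 times or changed sign were those of class I genes outside the members (-0.33 without knockout 3, -0.12 without knockout 4), interferon regulators (-0.10 and 0.059 without wild type 2 and 1), MHC neighbours (-0.042 and 0.022 without knockout 3 and 1), peptide supply (-0.037 and 0.065 without wild type 4 and 2), and B cell (-0.088 and 0.30 without wild type 4 and 2), adipocyte (0.098 and 0.33 without wild type 1 and 2), fibroblast (0.13 without wild type 4) and keratinocyte (0.057 without knockout 4) markers, beside the endothelial, T, NK and NKT cell and interferon-induced lists, with the most extreme values given. Other settings moved lists too. The class II median was -0.20 with the hair follicle covariate and 0.0088 with the macrophage and dendritic cell covariate. With the 60th percentile filter the B cell median was -0.43, the T, NK and NKT cell median 0.36 and that of other class I genes -0.025. The endothelial median was -0.35 within the 7-decimal and 0.019 within the 9-decimal arrays.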
